A study of Mus musculus with 16 samples.

Results

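Receptors for ATP, ADP and adenosine were followed through the colon wall of WT mice and of mice that model Hirschsprung disease (HSCR). The set held 10 of the 56748 genes of the deposited count table, chosen by gene symbol with earlier results of these data known. It comprised the ADP receptor P2ry1, the ATP-gated channels P2rx1, P2rx2, P2rx3, P2rx4 and P2rx7, the adenosine receptors Adora1, Adora2a and Adora2b, and Slc17a9, the transporter that loads ATP into vesicles. All 10 had counts, and each was read as CPM, the share of a library's reads scaled to a fixed total, after TMM scaling of all 16 libraries.

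Purines are among the transmitters of the enteric nervous system. ATP and related nucleotides released from enteric neurons excite other neurons through P2X channels, and they relax the muscle through P2Y1 receptors, which open small-conductance potassium channels in interstitial cells that carry Pdgfra. Enzymes on cell surfaces then break nucleotides down to adenosine, whose A1 receptor restrains transmitter release and whose A2 receptors raise cyclic AMP in neurons, epithelium, muscle and immune cells.

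RNA came from microdissected longitudinal muscle with its attached myenteric plexus (LMMP) of 2- to 4-week-old mice, with 4 libraries in each of 4 groups. These were WT proximal colon, HSCR proximal colon, WT distal colon and HSCR distal colon. WT mice were Ednrb +/+ and HSCR mice Ednrb -/-, littermates carrying the Ednrb tm1Ywa allele or its normal counterpart on a hybrid C57BL6/J-129Sv background. Both sexes were used. HSCR mice lack the endothelin B receptor throughout the body, and their distal colon forms without ganglia while the proximal colon keeps them. The labels do not give the sex or the animal of a library, and both segments may come from the same mice, so the p-values measure the spread between these libraries.

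Libraries held between 21384372 and 45831881 counted reads, of which mitochondrial genes took 4.32% to 49.8%. Markers of smooth muscle were present in every library, with a sum of 8 markers of 4379 CPM in HSCR proximal 2 and of 23679 to 93638 CPM in the others. Ednrb, the disrupted gene, read 33.8 to 67.1 CPM in WT proximal and 7.84 to 37.4 CPM in HSCR proximal libraries, against 11.8 to 43.0 CPM in WT distal libraries. HSCR distal libraries 2 to 4 held 5.43 to 9.48 CPM of Ednrb, whereas the library labelled HSCR distal 1 held 94.7 CPM, the highest of all 16. The summed CPM of 10 neuronal markers told the same library apart, at 921 against 20.8 to 89.0 in HSCR distal libraries 2 to 4. The library labelled HSCR proximal 1 lay at 76.9, below HSCR proximal libraries 2 to 4 (107 to 1309). Its posterior Hox genes, which mark distal gut, summed to 217 CPM, within the WT distal range of 198.5 to 294.9. This lay above the WT proximal range of 50.9 to 81.5, as did HSCR proximal libraries 3 and 4 at 98.7 and 126. HSCR distal libraries 1 and 4 held 120.3 and 111.5, so that this sum does not single out library 1 of that group. The labels of the HSCR libraries numbered 1 are therefore in doubt. For the segment of the proximal one this rests on Hox genes, since its neuronal sum lay not far below the 107 of HSCR proximal 2. For the distal one it rests on neuronal markers and on an Ednrb level above every WT library. Ednrb alone does not tell genotype here, since HSCR proximal libraries reached 37.4 CPM, within the WT distal range. The genotype label of HSCR distal 1 was not tested. Genotype differences of the members are given with and without the HSCR libraries numbered 1. Where such a library was the highest or lowest of its group in a gene, the direction of the change was fixed by the choice. Epithelial transcripts also differed, and the sum of 10 epithelial markers reached 14218 CPM in HSCR proximal 2, 5541 in HSCR distal 3 and 3119 in HSCR proximal 3, while the WT libraries held 48.8 to 2364.

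Per kb of gene length, P2ry1 had the highest mean level over the 16 libraries, at 12.2 ± 4.57 CPM per kb (SD, n = 16). P2rx2 followed at 7.80 ± 9.88 CPM per kb, with an SD larger than its mean. P2rx4 read 3.13 ± 1.97, P2rx7 2.46 ± 1.65, Adora1 2.02 ± 1.12 and Slc17a9 1.92 ± 2.87 CPM per kb. Lower levels were seen for Adora2a (1.10 ± 0.887), P2rx1 (1.02 ± 0.960), P2rx3 (0.312 ± 0.449) and Adora2b (0.311 ± 0.299). No gene exceeded its next neighbour in this order in every library. P2ry1 lay above P2rx2 in 13 of 16 libraries, P2rx2 above P2rx4 in 9, and Adora1 above Slc17a9 in 11, while P2rx3 lay above Adora2b in only 5. P2ry1 also varied least, with its highest library 3.26 times its lowest, and P2rx2 varied most among the genes detected in all libraries, with a ratio of 661.

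**Figure D1:**
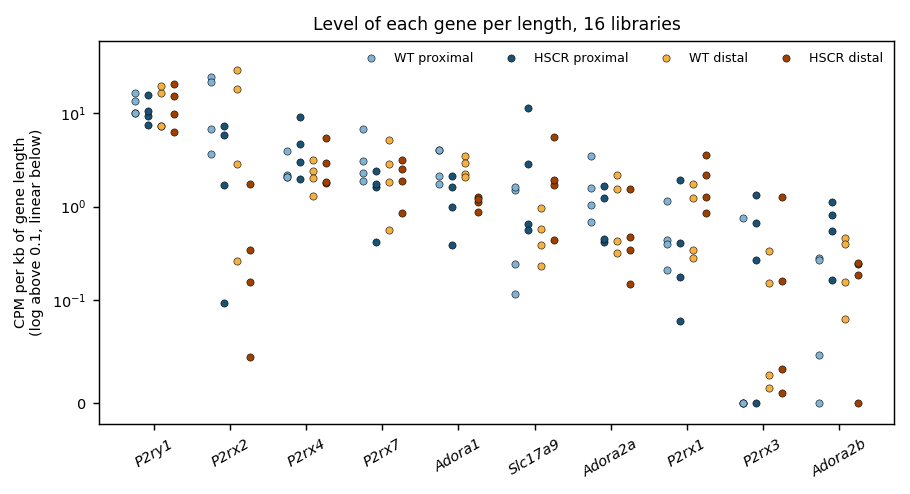
Level of each gene in CPM per kb of gene length (vertical axis, logarithmic above 0.1 and linear below) in the 16 libraries, coloured by group, in the order of their means. P2ry1 stays within 6.25 to 20.4 CPM per kb in all libraries, whereas P2rx2 ranges from 0.0444 to 29.3 and P2rx3 and Adora2b reach 0.

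Genotype was compared in each segment with edgeR's quasi-likelihood test over all genes that passed a filter on low counts. With Benjamini-Hochberg adjustment, 0 of the 10 genes were called in proximal colon and 0 in distal colon at an adjusted p under 0.05, where 0.0% of 16664 and 0.0% of 17059 genes were called. At an unadjusted p under 0.05, the edgeR test picked 1 of the 10 in the proximal colon (Adora1, lower in HSCR), beside 6.62% of all genes tested and 4.13% that were lower. In the distal colon it picked 3 of the 10 (Adora1 and P2rx2, lower in HSCR, and Slc17a9, higher), beside 2.64% of all genes and 1.76% that were lower. DESeq2 called 0 of them in proximal colon, beside 0.858% of all genes, and 1, Adora1, in distal colon, beside 0.152%. A likelihood ratio test after RUVr with 4 factors, the kind of analysis that the study's Methods name, called 6 in proximal and 3 in distal colon, beside 21.4% and 9.64% of all genes tested. It was run only as an alternative, because in earlier work on these data it made false calls on libraries without a difference. Its calls are therefore not comparable with those of the edgeR quasi-likelihood test. Median log2 fold changes over the 10 genes were -0.01 and -0.13, beside 0.04 and 0.04 over all genes tested. The HSCR libraries all lay below the WT libraries for 0 of the 10 genes in the proximal colon, beside 2.83% of all genes, and for 1 in the distal colon, beside 1.15%. Groups failed to overlap in either direction for 4.78% and 1.83% of all genes.

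**Figure D2:**
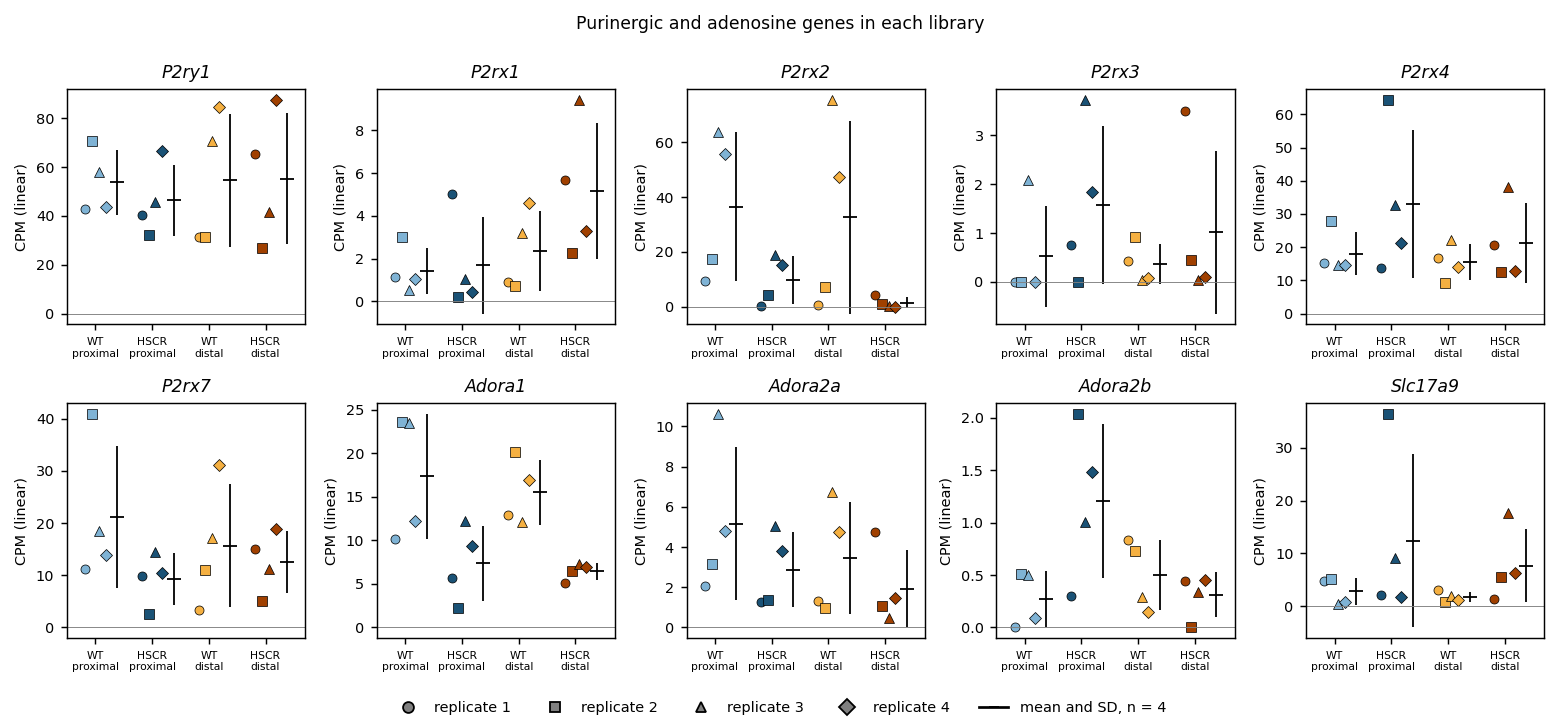
CPM of each of the 10 genes (vertical axes, linear, scaled per gene) in the 4 groups, with a point per library, a marker shape per replicate number and the mean and SD of 4 libraries. Adora1 is the gene whose HSCR distal libraries (5.08 to 7.26 CPM) lie wholly below the WT distal libraries (12.05 to 20.2 CPM).

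P2ry1, the Gq-coupled ADP receptor of purinergic muscle relaxation, did not differ detectably between genotypes. Its WT proximal libraries 1 to 4 held 42.7, 70.7, 58.1 and 43.6 CPM, and the HSCR proximal libraries 40.5, 32.3, 45.8 and 66.7 CPM. The WT distal libraries held 31.6, 31.2, 70.8 and 84.6 CPM, and the HSCR distal libraries 65.2, 26.8, 41.6 and 87.5 CPM. The groups overlapped widely in both segments. The means were 53.8 ± 13.3 in WT and 46.3 ± 14.7 CPM in HSCR proximal colon, and 54.6 ± 27.4 and 55.3 ± 26.7 CPM in the distal colon (SD, n = 4 each). The log2 fold change of P2ry1 from edgeR was -0.23 in the proximal colon (SE 0.29, adjusted p = 0.881), with a 95% interval of -0.89 to 0.44. Distally it was 0.04 (SE 0.46, adjusted p = 1.00), with an interval of -0.99 to 1.08. Without the HSCR library numbered 1, the values of P2ry1 were -0.15 (proximal) and -0.0703 (distal).

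The window before the P2ry1 start site is shown because this gene held the steadiest level of the set. It is taken from RefSeq's GRCm38.p6 promoters, is 250 bases long on the plus strand and matched GRCm39 exactly at chr3:60909956-60910205. The count table starts the gene at 60910216, after the window, and GENCODE M39 at 60910159, within it. Capitals mark the GC box GGGCGG or its reverse complement, which occurred 2 times.
P2ry1: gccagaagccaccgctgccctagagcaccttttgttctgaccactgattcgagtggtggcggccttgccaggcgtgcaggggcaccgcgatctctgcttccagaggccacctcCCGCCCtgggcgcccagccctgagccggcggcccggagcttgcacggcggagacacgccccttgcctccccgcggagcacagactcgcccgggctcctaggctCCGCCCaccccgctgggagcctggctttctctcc
GC boxes occurred in 32.7% of all 32851 promoter windows of the same length, TATAAA in 12.4% and the E-box CAGCTG in 13%, each searched on both strands. The P2ry1 window held neither of the last 2 motifs.

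P2rx2, an ATP-gated channel of enteric and sensory neurons that carries fast excitation between nerve cells, had the widest range of the set. WT proximal libraries 1 to 4 held 9.33, 17.3, 63.7 and 55.5 CPM, and HSCR proximal libraries held 0.25, 4.36, 18.9 and 15.1 CPM. Both genotypes were higher in libraries 3 and 4, and the groups overlapped. WT distal libraries held 0.68, 7.33, 75.4 and 47.4 CPM, and HSCR distal libraries 4.44, 0.88, 0.40 and 0.11 CPM. WT distal libraries 2 to 4 exceeded every HSCR distal library, but WT distal 1 lay among them.

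Mean P2rx2 was 36.5 ± 27.1 CPM in WT and 9.66 ± 8.80 CPM in HSCR proximal colon, and 32.7 ± 35.2 against 1.46 ± 2.01 CPM in the distal colon (SD, n = 4 each). The edgeR log2 fold change was -1.93 in the proximal colon (SE 1.05, adjusted p = 0.762). Distally it was -4.42 (SE 1.51, unadjusted p = 0.017, adjusted p = 1.00), with a 95% interval of -7.85 to -0.9997. Exact two-sided permutation tests on the mean log2 CPM of P2rx2 gave p = 0.143 and p = 0.0857, where 4 against 4 libraries cannot give less than 0.0286. Replicates 1 and 2 share a scheme of library names across the 4 groups. Replicates 3 and 4 carry 2 other schemes, which hold all distal libraries with HSCR proximal 3, and WT proximal 3 and 4 with HSCR proximal 4. On the log2 scale the distal difference of P2rx2 was -0.18 within replicates 1 and 2, where HSCR distal 2 alone against both WT libraries gave -1.34, and -8.02 within replicates 3 and 4. In the proximal colon it was -3.57 within replicates 1 and 2, or -1.54 with HSCR proximal 2 alone, and -1.81 within replicates 3 and 4. Leaving out the HSCR libraries numbered 1 here was chosen after seeing the data. Without the library labelled HSCR distal 1, the distal log2 fold change was -6.15 (edgeR adjusted p = 0.813), and without the library labelled HSCR proximal 1 the proximal value was -1.5 (adjusted p = 0.845). HSCR distal 1 was the highest HSCR distal library in P2rx2, and HSCR proximal 1 the lowest HSCR proximal one. The direction of both changes was therefore fixed by the choice.

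P2rx3, the partner channel of P2rx2 in sensory neurons, was near the limit of detection. It had no counts in WT proximal libraries 1, 2 and 4, where 0 counts allow up to 0.215, 0.110 and 0.130 CPM, and read 2.08 CPM in WT proximal 3. HSCR proximal libraries held 0.75, 0, 3.73 and 1.84 CPM. For distal colon, WT libraries held 0.42, 0.93, 0.04 and 0.08 CPM and HSCR libraries 3.49, 0.44, 0.03 and 0.09 CPM. No group difference could be seen, with edgeR adjusted p = 0.878 in proximal and 1.00 in distal colon, and without the library labelled HSCR distal 1 the distal log2 fold change moved from 1.5 to -0.97, while the proximal value went from 1.56 to 1.82 without the library labelled HSCR proximal 1. Such limits cover counting error only. P2rx3 overlaps exons of Ssrp1 on the opposite strand, a gene with 51969 counts over all libraries, so that its few reads are uncertain.

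P2rx1, the ATP-gated channel of arterial and other smooth muscle and of platelets, was low throughout. WT proximal libraries held 1.15, 3.01, 0.55 and 1.04 CPM, and HSCR proximal libraries 5.05, 0.21, 1.06 and 0.46 CPM. WT distal libraries held 0.90, 0.73, 3.20 and 4.62 CPM, and HSCR distal libraries 5.70, 2.26, 9.43 and 3.31 CPM. The library labelled HSCR proximal 1 was the highest proximal library, and the HSCR distal libraries overlapped the WT distal ones. P2rx1 had a log2 fold change of 0.21 (SE 1.03, edgeR adjusted p = 0.979) in the proximal colon, where it turned to -1.34 without the library labelled HSCR proximal 1. Distally it was 1.13 (SE 0.72, edgeR adjusted p = 1.00), and 1.04 without the library labelled HSCR distal 1.

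P2rx4, a widely expressed P2X channel of epithelium and immune cells, was highest in HSCR proximal library 2. WT proximal libraries held 15.2, 27.9, 14.7 and 14.6 CPM, and HSCR proximal libraries 13.7, 64.4, 32.8 and 21.2 CPM. For distal colon, WT libraries held 16.7, 9.21, 22.2 and 14.1 CPM, and HSCR libraries 20.8, 12.5, 38.3 and 12.97 CPM. The groups overlapped in both segments. P2rx4 had a log2 fold change of 0.86 (SE 0.49, edgeR adjusted p = 0.765) in proximal colon and 0.41 (SE 0.43, edgeR adjusted p = 1.00) in distal colon. Without HSCR proximal libraries 2 and 3, an alternative chosen after seeing their epithelial sums, the proximal value of P2rx4 was -0.04. These were also the highest HSCR proximal libraries in P2rx4, so that a lower value was fixed by the choice. Without the library labelled HSCR proximal 1 the proximal value was 1.13 (edgeR unadjusted p = 0.036, adjusted p = 0.845). The distal value without the library labelled HSCR distal 1 was 0.39.

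P2rx7, the channel that opens at high ATP and is known from macrophages and glia, was mostly lower in HSCR proximal colon. WT proximal libraries held 11.1, 40.98, 18.5 and 13.8 CPM and HSCR proximal libraries 9.77, 2.49, 14.5 and 10.4 CPM, so that 3 of 4 HSCR libraries lay below every WT library. For distal colon, WT libraries held 3.38, 11.003, 17.2 and 31.2 CPM and HSCR libraries 15.1, 5.11, 11.2 and 18.9 CPM, with no separation. The edgeR log2 fold change of P2rx7 was -1.21 in the proximal colon (SE 0.58, unadjusted p = 0.0677, adjusted p = 0.752). It was -0.29 in the distal colon (SE 0.63, adjusted p = 1.00). The proximal difference was -2.11 within replicates 1 and 2 and -0.38 within replicates 3 and 4 on the log2 scale. Leaving out each library in turn, the proximal value stayed between -1.47 and -0.67. Without the HSCR library numbered 1 the values of P2rx7 were -1.23 and -0.42. HSCR proximal 2, the lowest library of P2rx7, also had the lowest smooth muscle sum (4379 CPM) and the highest epithelial sum (14218 CPM) of all libraries.

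Adora1, the Gi-coupled A1 receptor that restrains transmitter release from nerve endings, had lower means in HSCR than in WT mice in both segments. WT proximal libraries 1 to 4 held 10.2, 23.6, 23.5 and 12.2 CPM, and HSCR proximal libraries 5.69, 2.25, 12.2 and 9.32 CPM. HSCR proximal 3 lay among the lower WT libraries, and the other 3 HSCR libraries lay below all of WT. The lowest, HSCR proximal 2, also had the lowest smooth muscle sum and the highest epithelial sum of all libraries. The WT distal libraries held 12.9, 20.2, 12.05 and 16.9 CPM, and the HSCR distal libraries 5.08, 6.49, 7.26 and 6.92 CPM. No HSCR distal library reached a WT distal one.

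Proximal colon held 17.4 ± 7.18 CPM of Adora1 in WT and 7.37 ± 4.33 CPM in HSCR mice on average, a ratio of 2.36 (SD, n = 4 each). Distal colon held 15.5 ± 3.76 and 6.44 ± 0.955 CPM, a ratio of 2.41. The log2 fold change was -1.25 in the proximal colon (SE 0.53, 95% interval -2.46 to -0.04, edgeR unadjusted p = 0.0439, adjusted p = 0.747). It was -1.27 in the distal colon (SE 0.32, interval -1.99 to -0.55, edgeR unadjusted p = 0.0032, adjusted p = 1.00), and DESeq2 gave an adjusted p of 0.0266 there. An exact two-sided permutation test gave p = 0.0286 in the distal colon, the smallest that 4 against 4 libraries can give, and p = 0.0857 in the proximal colon. Within replicates 1 and 2 and within replicates 3 and 4 the sign was the same, at -2.11 and -0.66 in proximal colon and -1.49 and -1.01 in distal colon on the log2 scale. Without the libraries whose labels are in doubt, the values were -1.14 in the proximal colon without the library labelled HSCR proximal 1 and -1.19 in the distal colon without the library labelled HSCR distal 1 (edgeR unadjusted p = 0.0968 and 0.00873, adjusted p = 0.845 and 0.813). Proximally, 0 of the 10 genes had an edgeR unadjusted p under 0.05 without HSCR proximal 2. The same held without HSCR proximal 4 or without WT proximal 2. Without WT proximal 3, the 1 gene with such a p was higher in HSCR, so that it was not Adora1. Adora1 shares exon bases with Mybph on the opposite strand, which had 348 counts over all libraries. In bulk tissue, fewer cells of a type and less RNA per cell cannot be told apart.

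Adora1 was also the gene with the smallest distal standard error of the set, and its promoter window is shown for that reason. This window of RefSeq's GRCm38.p6 promoters, on the minus strand, matched GRCm39 exactly at chr1:134163196-134163445, beside a gene that the count table places at chr1:134126961-134163169. In GENCODE M39 the gene reaches to 134163579, so that the window lies inside the gene as annotated there. Capitals again mark GC boxes, of which 3 lay close together near its end.
Adora1: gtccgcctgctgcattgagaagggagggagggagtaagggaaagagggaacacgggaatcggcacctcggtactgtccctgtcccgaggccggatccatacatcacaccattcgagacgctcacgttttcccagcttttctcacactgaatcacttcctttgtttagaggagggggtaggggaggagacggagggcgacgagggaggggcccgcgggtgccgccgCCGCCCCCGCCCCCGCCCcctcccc
The second RefSeq window of Adora1 held none of the 3 motifs. Windows were found for 6 of the 10 genes, and the RefSeq promoters used here held none for P2rx2, P2rx3, Adora2a and Slc17a9.

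Adora2a, a Gs-coupled adenosine receptor, was low and highest in WT libraries 3. WT proximal libraries held 2.08, 3.15, 10.6 and 4.80 CPM, and HSCR proximal libraries 1.27, 1.38, 5.05 and 3.81 CPM. WT distal libraries held 1.32, 0.98, 6.74 and 4.74 CPM, and HSCR distal libraries 4.75, 1.06, 0.45 and 1.44 CPM. All groups overlapped. The log2 fold change of Adora2a was -0.85 (SE 0.69, edgeR adjusted p = 0.819) in proximal colon and -0.79 (SE 0.90, edgeR adjusted p = 1.00) in distal colon, and -0.59 and -1.79 without the HSCR library numbered 1 of the segment.

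Adora2b, the low-affinity adenosine receptor known from epithelium, where it drives chloride secretion, was the least abundant adenosine receptor of the set. WT proximal libraries held 0, 0.51, 0.50 and 0.09 CPM, where the 0 allows up to 0.215 CPM, and HSCR proximal libraries held 0.30, 2.04, 1.00 and 1.48 CPM. HSCR proximal libraries 2 to 4 lay above every WT proximal library. WT distal libraries held 0.84, 0.73, 0.29 and 0.15 CPM and HSCR distal libraries 0.45, 0, 0.34 and 0.46 CPM, where the 0 allows up to 0.109 CPM. The edgeR log2 fold change of Adora2b was 2.09 in the proximal colon (SE 1.12, unadjusted p = 0.0942, adjusted p = 0.760) and -0.70 in the distal colon (SE 1.13, adjusted p = 1.00). Without the HSCR library numbered 1 these values were 2.44 and -0.95.

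Slc17a9, the vesicular nucleotide transporter, had higher means in HSCR than in WT mice in both segments, with 2 of 4 proximal and 3 of 4 distal HSCR libraries above every WT library. WT proximal libraries held 4.81, 5.14, 0.37 and 0.78 CPM, and HSCR proximal libraries 2.07, 36.5, 9.12 and 1.80 CPM. WT distal libraries held 3.06, 0.73, 1.84 and 1.23 CPM, and HSCR distal libraries 1.40, 5.47, 17.7 and 6.19 CPM. HSCR distal libraries 2 to 4 exceeded every WT distal library, whereas the library labelled HSCR distal 1 lay within the WT range.

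Mean Slc17a9 was 2.77 ± 2.55 in WT and 12.4 ± 16.4 CPM in HSCR proximal colon, and 1.71 ± 1.00 against 7.68 ± 6.99 CPM in the distal colon (SD, n = 4 each). Slc17a9 had a log2 fold change of 2.15 in the proximal colon (SE 1.18, edgeR unadjusted p = 0.101, adjusted p = 0.762). It was 2.10 in the distal colon (SE 0.78, 95% interval 0.34 to 3.86, edgeR unadjusted p = 0.0244, adjusted p = 1.00), and 2.45 without the library labelled HSCR distal 1, while the proximal value was 2.5 without the library labelled HSCR proximal 1. Exact two-sided permutation tests gave p = 0.286 and p = 0.0857. Without HSCR proximal libraries 2 and 3, the libraries richest in epithelial transcripts in that group, the proximal value of Slc17a9 turned to -0.53. These were also the group's highest libraries in Slc17a9, so that a lower value was fixed by the choice. The library labelled HSCR proximal 1, whose label is in doubt, stayed in. A long noncoding RNA with 13943 counts over all libraries shares exon bases with Slc17a9 on the opposite strand, so that reads of the pair may not be separable.

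**Figure D3:**
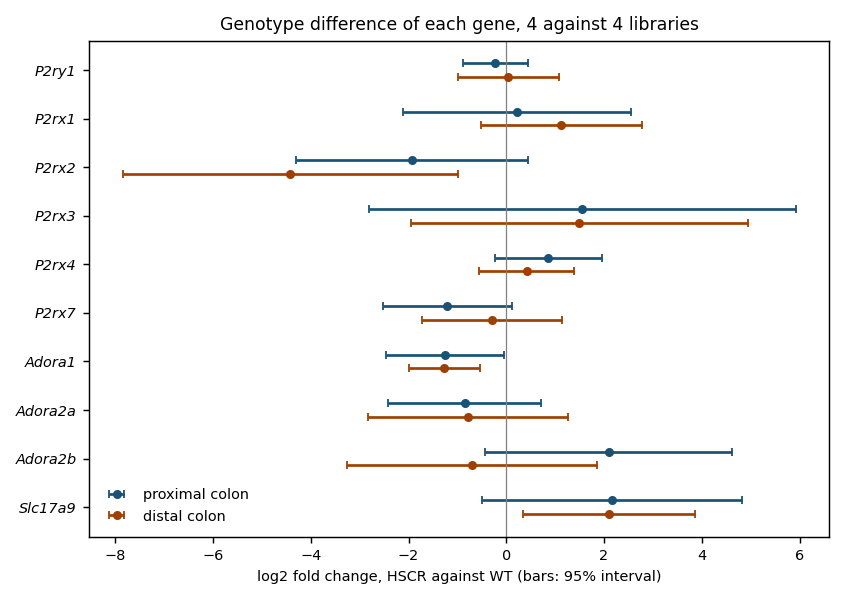
log2 fold change of each gene in HSCR against WT libraries (horizontal axis) with its 95% interval from edgeR's quasi-likelihood fit, in the proximal (blue) and distal (brown) colon, 4 against 4 libraries. The intervals of Adora1 lie below 0 in both segments (-2.46 to -0.04 and -1.99 to -0.55), while those of P2rx2 and Slc17a9 exclude 0 in the distal colon alone.

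Segments were compared within each genotype, to ask whether purinergic genes differ along the colon. In WT mice 0 of the 9 genes tested were called, where edgeR called 0.0181% of 16566 genes, and 0 of the 9 had an unadjusted p under 0.05. DESeq2 called 0 of them as well, beside 0.267% of all genes. Over all genes tested, 5.23% had an unadjusted p under 0.05 (2.06% lower in distal colon) and 4.26% had groups that did not overlap. P2rx3 did not pass the filter on low counts in this comparison. P2ry1 had a log2 fold change of 0.00 (95% interval -0.78 to 0.79) from proximal to distal WT colon, and Adora1 one of -0.14 (interval -0.95 to 0.67). P2rx2 lay at -0.19, with a wide interval of -2.59 to 2.22.

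In HSCR mice 0 of the 10 genes were called between segments, where edgeR called 0.0% of 17086 genes, 0 of the 10 had an unadjusted p under 0.05 (1.49% of all genes), and DESeq2 called 0, beside 0.0134%. P2rx2 had a log2 fold change of -2.71 from proximal to distal (SE 1.37, edgeR unadjusted p = 0.0791, adjusted p = 1.00), and -4.82 without the libraries numbered 1 of both segments (unadjusted p = 0.00209, adjusted p = 0.920). Adora2b lay at -1.97 (SE 1.06) and P2rx1 at 1.57 (SE 0.96), and without the libraries numbered 1 these values were -2.54 and 3.03. Thus 2 of the 10 genes, P2rx2 and P2rx1 (edgeR unadjusted p = 0.0129, adjusted p = 0.920), had an unadjusted p under 0.05 without these libraries, beside 4.91% of all genes. HSCR proximal 1 was the lowest library of its group in P2rx2 and the highest in P2rx1. HSCR distal 1 was the highest of its group in P2rx2. For P2rx2 a larger difference was thus fixed by the choice, and for P2rx1 leaving out HSCR proximal 1 could only raise the value. Whether the genotype difference itself differed between segments was tested over all 16 libraries, where edgeR called 0.0% of 18619 genes, 0 of the 10 genes at an adjusted and 0 at an unadjusted p under 0.05 (1.44% of all genes). DESeq2 also called 0 of the 10, beside 0.0281% of all genes. The difference of the log2 fold changes of Adora1 was -0.02 (95% interval -1.32 to 1.28), and that of P2rx2 was -2.5 (interval -6.33 to 1.34). Without the HSCR libraries numbered 1 the value of P2rx2 was -4.64 (edgeR unadjusted p = 0.0146, adjusted p = 1.00), and it was 1 of the 10 genes with an unadjusted p under 0.05, beside 1.96% of all genes. For P2rx2 this larger value was again fixed by the choice of libraries, so that no conclusion is drawn from it.

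P2rx2 and Adora2a varied with the neuronal content of the libraries. The summed CPM of neuronal markers was highest in WT proximal libraries 3 and 4 and WT distal libraries 3 and 4, and these were also the 4 libraries highest in P2rx2. Over the 16 libraries Pearson's r of the log2 values was 0.95 for P2rx2 and 0.89 for Adora2a, given as a description over libraries that share tissue, groups and scaling. In HSCR distal colon the cholinergic marker Chat was at 0 in all 4 libraries, the only neuronal marker of the 10 that was. A neuronal marker was also at 0 in HSCR proximal 1, HSCR proximal 2 and WT distal 1. The sum of all 10 neuronal markers was 20.8 to 921 CPM in HSCR distal colon against 89.8 to 2002 in WT distal colon. The part of neuronal content in the P2rx2 differences was not tested. As a scale chosen after seeing the data, P2rx2 was divided by the neuronal sum of its own library, which gave 1.43 to 1.97 CPM of P2rx2 per 100 CPM of neuronal markers in WT proximal libraries. HSCR proximal libraries 2 to 4 held 4.08, 1.44 and 1.27 on this scale and the library labelled HSCR proximal 1 held 0.325. WT distal libraries spanned 0.753 to 3.77 and HSCR distal libraries 0.482 to 1.14, so that the overlap of the distal groups remained. Adora2a on the same scale was 0.170 to 0.355 in WT proximal and 0.320 to 1.66 in HSCR proximal libraries. It was 0.301 to 1.47 in WT distal and 0.516 to 6.92 in HSCR distal libraries. The value of 6.92 was that of HSCR distal 4, whose neuronal sum was the lowest, so that Adora2a did not fall in proportion to that sum.

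Adora1 followed neuronal content less closely, with r of 0.56 with the neuronal and 0.60 with the glial marker sum over the 16 libraries. Its level in HSCR distal libraries 2 to 4, whose neuronal sums were 20.8 to 89.0 CPM, was 6.49 to 7.26 CPM, and in the library labelled HSCR distal 1, at a neuronal sum of 921, it was 5.08 CPM. Per 100 CPM of neuronal markers, Adora1 was 0.552 to 33.3 CPM in HSCR distal and 0.602 to 14.4 CPM in WT distal libraries, with medians of 14.1 and 3.64. The summed level of 6 glial markers was 53.7 to 229 CPM in HSCR distal and 138 to 454 CPM in WT distal colon, and its part in the Adora1 difference was not tested.

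Slc17a9 and P2rx4 were highest in the libraries with the most epithelial transcripts, but did not follow epithelial markers throughout. HSCR proximal 2, HSCR distal 3 and HSCR proximal 3, the libraries with the highest epithelial sums, were the 3 highest libraries of both genes. Over the 16 libraries r was 0.81 for Slc17a9 and 0.63 for P2rx4. The 4 lowest libraries of each gene shared 2 (Slc17a9) and 1 (P2rx4) with the 4 lowest in epithelial sum. P2rx4 held 27.9 CPM in WT proximal 2, at an epithelial sum of 109, and 12.5 CPM in HSCR distal 2, at 1660. Epithelial sums ranged from 202 to 14218 CPM in HSCR proximal and from 48.8 to 1787 CPM in WT proximal colon, and from 116 to 5541 CPM in HSCR distal and from 133 to 2364 CPM in WT distal colon. Slc17a9 in HSCR distal 4 was 6.19 CPM at an epithelial sum of 116 CPM, above all WT distal libraries. Its level per 100 CPM of epithelial markers overlapped between genotypes, at 0.319 to 5.32 in HSCR distal and 0.129 to 0.831 in WT distal libraries. The part of epithelium in the distal difference was not tested. Other pairs of a member and a marker sum were compared in the same way. The r was 0.02 for Adora2b with epithelial, 0.10 for P2rx3 with neuronal and 0.39 for P2rx7 with glial markers. It was 0.29 for P2ry1 with markers of Pdgfra cells and fibroblasts, and 0.50 for P2rx1 with smooth muscle markers.

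**Figure D4:**
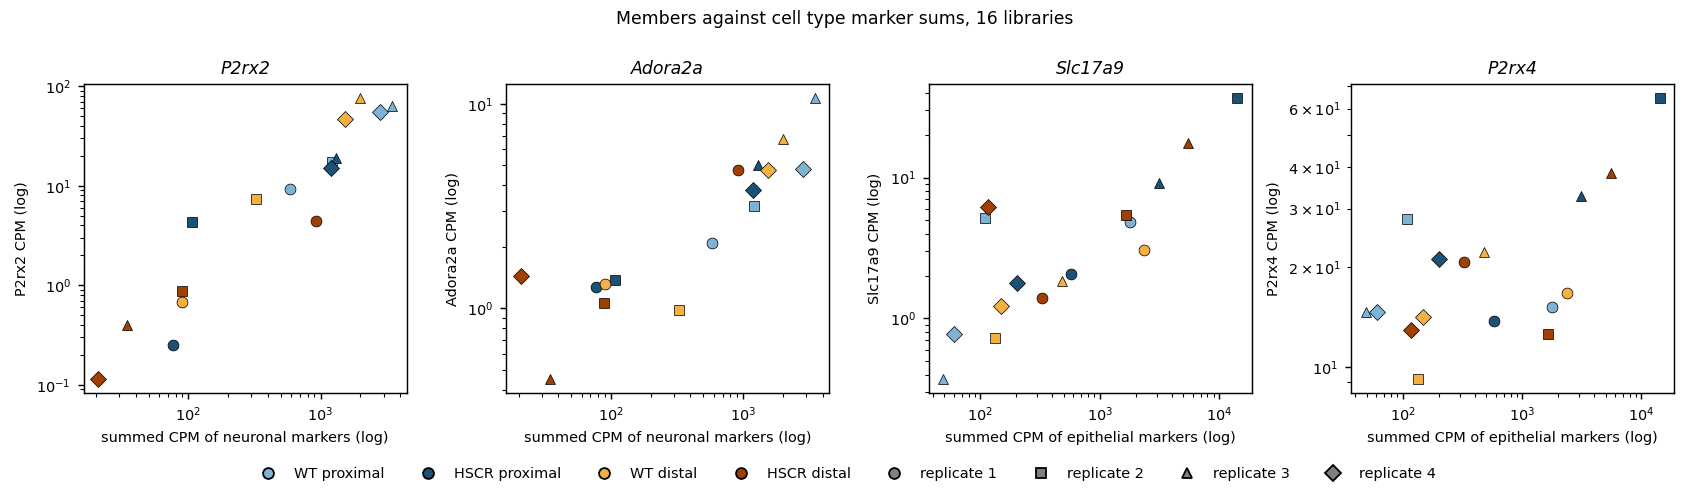
CPM of P2rx2 and Adora2a against the summed CPM of 10 neuronal markers, and of Slc17a9 and P2rx4 against the summed CPM of 10 epithelial markers (all axes logarithmic), with a point per library coloured by group and shaped by replicate number. P2rx2 spans 0.11 to 75.4 CPM along neuronal sums of 20.8 to 3490, and HSCR proximal 2 holds the highest epithelial sum with the highest Slc17a9 and P2rx4.

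A further 32 genes of purinergic signalling were read beside the 10. In the proximal colon 27 passed the filter and 0 were called by edgeR (2 at an unadjusted p under 0.05, beside 6.62% of all genes) and 1 (Entpd2) by DESeq2 (0.858% of all genes), with 17 higher and 10 lower in HSCR. Entpd2, the ectonucleotidase of enteric glia that degrades ATP, held 32.4, 32.8, 62.4 and 47.2 CPM in WT proximal libraries and 8.07, 13.3, 20.7 and 12.5 CPM in HSCR proximal libraries. No HSCR proximal library reached a WT one, as for 1 of the 27 genes beside 2.83% of all genes, and the log2 fold change was -1.69 (SE 0.35, edgeR unadjusted p = 0.00096, adjusted p = 0.525). Distally, the log2 fold change of Entpd2 was -0.93 (SE 0.42, edgeR adjusted p = 1.00). Glial marker sums were 336 to 765 CPM in WT proximal and 67.4 to 372 CPM in HSCR proximal colon, and Entpd2 per 100 CPM of glial markers was 4.23 to 18.6 and 5.55 to 11.96, so that the groups overlapped on that scale.

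Slc29a4, a membrane transporter that also carries adenosine and was singled out after its values were seen, held 4.09, 7.12, 52.9 and 39.1 CPM in WT proximal libraries and 1.12, 1.97, 6.81 and 5.26 CPM in HSCR proximal libraries (edgeR log2 fold change -2.77, SE 0.91, unadjusted p = 0.0135, adjusted p = 0.722). Of the remaining listed genes in the proximal colon, P2ry2, P2ry6 and P2ry14, receptors for nucleotides or UDP-sugars, had log2 fold changes of 0.78, 0.19 and 0.67. P2rx5 and P2rx6 lay at 0.67 and 0.49, the microglial and platelet ADP receptor gene P2ry12 at -1.08, the ecto-5'-nucleotidase Nt5e at 0.54 and the ATP release channel Panx1 at 0.50. All of these had edgeR adjusted p-values of 0.765 or more.

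In the distal colon 27 of the 32 genes passed the filter, 0 were called by edgeR (1 at an unadjusted p under 0.05, beside 2.64% of all genes) and 0 by DESeq2, with 14 higher and 13 lower in HSCR. Kcnn3, the small-conductance potassium channel that P2Y1 receptors open, held 52.6, 90.9, 92.8 and 140 CPM in WT distal libraries and 57.1, 41.9, 28.4 and 58.1 CPM in HSCR distal libraries. Only WT distal 1 lay within the HSCR range. Kcnn3 had a log2 fold change of -0.99 (SE 0.36, edgeR unadjusted p = 0.0212, adjusted p = 1.00), while in the proximal colon it was -0.40 (SE 0.68). P2rx6 and Panx1 had distal log2 fold changes of 1.44 (SE 0.67) and 1.04 (SE 0.91), and Nt5e one of 1.04 (SE 0.75), each with an edgeR adjusted p of 1.00.

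Between WT segments 25 of the 32 genes were tested, 0 were called by edgeR (2 at an unadjusted p under 0.05, P2rx6 and P2ry12, beside 5.23% of all genes) and 0 by DESeq2. P2rx6 had a log2 fold change of -1.5 (SE 0.64, edgeR adjusted p = 0.906). Panx1 held 13.7 to 24.2 CPM in WT proximal and 0.814 to 12.5 CPM in WT distal libraries, with no overlap (log2 fold change -1.25, SE 0.65, edgeR adjusted p = 0.906). P2ry12 held 3.17 to 11.5 CPM and 1.33 to 3.00 CPM, also without overlap (log2 fold change -1.40, SE 0.60, edgeR adjusted p = 0.906). These are 2 of the 25 genes, beside 1.58% of all genes tested whose WT distal libraries all lay below the WT proximal ones.

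Genes whose levels followed a member most closely over the 16 libraries were sought among 15226 genes with a mean of at least 1 CPM, as a description. P2rx2 was followed most closely by Jph3, Snap25 and Pcsk1n (r of 0.97, 0.96 and 0.96), of which Snap25 is a synaptic protein and a marker of the neuronal list. Adora2a was followed by Cadm3, Ret and Ache (0.95, 0.95 and 0.94), Ret being the receptor kinase of enteric neural crest cells and Ache the esterase that degrades acetylcholine. P2ry1 was followed by Ormdl3, Gramd1a and Gja1 (0.92, 0.89 and 0.89), P2rx7 by Miat, Vwa5b2 and Gm15751 (0.93 each), and Adora1 by Fam219a, Nav3 and Dennd4b (0.92, 0.91 and 0.90). Slc17a9 was followed by Pheta1, Slc44a3 and Arrdc1 (0.94, 0.93 and 0.92), P2rx4 by Tor4a, Erbb2 and Cd82 (0.92, 0.92 and 0.91) and P2rx1 by Smc3, Ccdc80 and Tubgcp3 (0.83, 0.79 and 0.78). Among the 8 members that reached 1 CPM, the pairs most alike were P2rx2 with Adora2a (0.81), P2ry1 with P2rx7 (0.79) and P2rx4 with Slc17a9 (0.73).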

How the data were processed

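The authors aligned the reads with HISAT2 2.2.1 to mm39 and counted them on GENCODE genes with featureCounts 2.0.6, and the deposited counts are whole numbers without normalization. The strand setting is not given in the sources used here, and the labels describe a stranded and an unstranded kit. FPKM values and the columns of the authors' own comparisons (fold changes, p-values) were deposited too and were not used. A separate table of the proximal comparison was not used. Libraries were grouped by title, since the tissue entry of the distal libraries names the proximal colon. No libraries were identical (0 pairs).

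The counts of all genes were tested with edgeR 4.0.16 (glmQLFit and glmQLFTest) in R 4.3.3, after filterByExpr and TMM scaling, separately for each comparison of 4 against 4 libraries and over 16 libraries for the interaction. Benjamini-Hochberg adjustment ran over all genes tested, and genes under 0.05 were called. The standard error was the log2 fold change over the square root of the F statistic. CPM used TMM factors over 16 libraries, log2 CPM a prior count of 0.5, and levels per kb the deposited gene length. Exact permutation tests were two-sided on mean log2 CPM. A count of 0 was given the limit of 3 counts. Libraries held 21384372 to 45831881 counts, and the biological coefficient of variation over all genes was 0.715 in the proximal and 0.737 in the distal comparison.

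The study's Methods name edgeR's likelihood ratio test with RUVr (4 factors), which was run as an alternative. Other alternatives were DESeq2 1.42.0, RLE scaling, no filter, no mitochondrial genes, a prior count of 2, the replicate number, or replicates 1 and 2 against 3 and 4 (which differ in library names), as a term, all 16 libraries in 1 fit, and leaving out each library. The test scripts were tested on simulated data. The 10 genes, the pathway and marker lists and the tests were chosen with earlier results of these data known. Of the 32 pathway genes, 10 were always named, with any called or with an unadjusted p under 0.05 in both segments, and of genes like a member the 3 with the highest r. Promoter windows came from RefSeq (GRCm38.p6) and were matched to GRCm39. Tables and figures used matplotlib 3.10.9, scipy 1.17.1 and pandas 2.3.3 under Python 3.11.15.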

Additional observations from a re-analysis of the deposited data

Results flagged for a closer look

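Over 40 sets of 4 libraries (10 genes in 4 groups), 3 held a library whose gap to its nearest neighbour on the log2 CPM scale took an unusually large share of the group's range, where chance flags about 1 in 20 groups, or 2 of 40. P2rx3 in WT proximal 3 had 2.08 CPM while the other libraries of its group were at 0, a gap of 1.00 of the range. With 3 libraries tied at 0 that share was fixed, so that it cannot be set against the chance rate. P2rx4 in WT proximal 2 had 27.9 CPM while its group otherwise lay at 14.6 to 15.2 CPM, a gap of 0.937 of the range. Adora2b in HSCR distal 2 had no counts (0 CPM) while its group otherwise lay at 0.34 to 0.46 CPM, a gap of 0.917 of the range. The size of that gap depends on the prior count, which sets the log2 value of a library at 0.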

How the results depend on the processing

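Of 884 log2 fold changes of members under other settings, 798 kept their direction and their side of the threshold, 12 passed the threshold and 74 changed sign. The likelihood ratio test with RUVr called 6, 3 and 2 of the 10 members in the proximal genotype, distal genotype and HSCR segment comparisons, and 3563, 1644, 3277, 431 and 308 genes in the proximal, distal, WT segment, HSCR segment and interaction comparisons. DESeq2 called 242, 45, 74, 4 and 9 genes and 1 member (Adora1, distal). With replicates 1 and 2 against 3 and 4 as a term (the series term) 4 genes were called in the proximal comparison. For the WT segments, 3 genes were called, against 0 with all 16 libraries in 1 fit and 0 to 2 when leaving out each library. The cause of these differences was not tested.

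Same-numbered libraries were not treated as paired. In 3 comparisons 2 of 4 pairs had a correlation of deviations over 0.1 (lowest -0.28), and between WT segments 3 of 4 did, the fourth being 0.0961 and the highest 0.57. Library names of replicates 1 and 2 share a number across groups, and what it marks is not given in the labels. With the replicate number as a block, 1 gene was called between WT segments, and no member was called in any comparison (0). The members with an unadjusted p under 0.05 were then Adora1 in the distal genotype comparison (edgeR unadjusted p = 0.00689, adjusted p = 0.933), where 3 had such a p without the block. In the proximal colon it was P2rx2 (edgeR unadjusted p = 0.0107, adjusted p = 0.453) in place of Adora1, and between HSCR segments P2rx1 (edgeR unadjusted p = 0.0182, adjusted p = 0.989). The sign turned for P2rx1 in the proximal colon (-0.34), P2ry1 between WT segments (-0.0829) and the interaction of Slc17a9 (0.30).

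The remaining turns of sign were these. With RUVr, P2rx1 was -0.33 and P2rx3 -0.00216 in the proximal colon, P2ry1 -0.0336 between WT segments, and the interactions of Adora1 and Slc17a9 were 0.0310 and 0.0294. For P2ry1 between WT segments, DESeq2 gave -0.0274, RLE scaling -0.0285, the series term -0.108 and all 16 libraries -0.0220. The series term gave Slc17a9 0.00795 between WT segments and interactions of 0.0199 for Adora1 and 0.137 for Slc17a9, which was 0.000898 without a filter. Without the HSCR libraries numbered 1 of both segments the interaction of Adora2a was -1.21. Without HSCR proximal libraries 2 and 3, chosen after seeing the data, proximal values were 0.0138 for P2ry1, -0.0367 for P2rx4 and -0.529 for Slc17a9. These libraries were also the group's highest in P2rx4 and Slc17a9.

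Leaving out each library in turn, the ranges that crossed 0 were, for genotype in the proximal colon, P2rx1 -1.34 to 0.87, and in the distal colon P2rx3 -0.97 to 2.54, P2rx7 -0.64 to 0.24 and P2ry1 -0.28 to 0.30. Between HSCR segments they were Adora1 -0.52 to 0.14, P2rx3 -3.08 to 0.24, P2ry1 -0.0848 to 0.48 and Slc17a9 -1.48 to 0.78. Between WT segments they were Adora1 -0.32 to 0.0205, Adora2a -1.16 to 0.00578, P2rx2 -1.04 to 0.22, P2rx4 -0.43 to 0.0563, P2rx7 -0.98 to 0.0749 and P2ry1 -0.25 to 0.18. For the interaction they were Adora1 -0.32 to 0.26, Adora2a -0.963 to 0.60, P2rx3 -7.28 to 0.91, P2rx4 -0.91 to 0.15, P2ry1 -0.0473 to 0.50 and Slc17a9 -0.87 to 1.55. Adora1 stayed between -1.57 and -0.95 in the proximal and between -1.37 and -1.13 in the distal genotype comparison. P2rx3 and Adora2b had libraries at 0 counts, where depth sets the limit that can be given.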
